A study of Homo sapiens with 36 samples.

Results

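Footprints of 12 libraries were compared to ask whether the effect of actinomycin D (actD) on ribosome occupancy differed between 72 h and 6 h of treatment. The compared genes were the protein-coding genes listed in both the 6 h and the 72 h footprint table, 19736 of 43582 genes of all types. Of these, 11306 had a count in any of the 12 libraries, 1495 had a count in every library, and 2556 passed the filter on low counts and were tested. The value tested for each gene was the treatment-by-time interaction, which is the log2 ratio of actD to DMSO at 72 h minus the same ratio at 6 h. A positive interaction therefore means that the actD to DMSO ratio was larger at 72 h.

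All libraries came from WiT49, a cell line from an anaplastic Wilms tumor, a childhood kidney cancer. The 4 groups were WiT49 cells kept for 6 h with 2 nM actD, for 6 h with the vehicle DMSO, for 72 h with 2 nM actD and for 72 h with DMSO, with 3 libraries each. These 12 footprint libraries are part of a series of 36, of which the 12 total RNA libraries of the same 4 groups were used beside them. The labels name 1 cell line and do not say whether replicates were separate cultures, so p-values measure only the spread between these libraries, which may be technical.

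ActD intercalates into DNA and stalls RNA polymerases, with transcription of ribosomal RNA by RNA polymerase I the most sensitive step. Ribosome footprints are the short mRNA fragments that a translating ribosome shields from nuclease. Their number for a gene depends on the amount of its mRNA and on how densely ribosomes load it. The mRNAs of ribosomal proteins and of several translation factors typically begin with a C followed by a run of pyrimidines, the terminal oligopyrimidine (TOP) start, through which the growth-regulating kinase mTORC1 and the RNA-binding protein LARP1 control their translation together.

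The bases around the annotated starts of 10 genes are given because ribosomal proteins are the list described first, and because most ribosomal protein genes share the TOP start. Each line holds 10 bases before the start and 20 bases from it, 5′ to 3′, from RefSeq on GRCh38.p14. Capitals mark a C at the start followed without a break by at least 4 C or T. RPL28, RPLP2, RPL37A, RPS13, RPS3 and RPL3 encode ribosomal proteins, EEF2 the elongation factor that moves the ribosome along the mRNA, SND1 an RNA-binding protein, UPF1 the helicase of nonsense-mediated decay and VCP an ATPase that extracts proteins for degradation.
RPL28, chr19:55385922-55385951, plus strand: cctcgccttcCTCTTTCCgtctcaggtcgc
RPLP2, chr11:809957-809986, plus strand: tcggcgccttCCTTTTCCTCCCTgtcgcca
RPL37A, chr2:216498834-216498863, plus strand: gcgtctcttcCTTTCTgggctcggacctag
RPS13, chr11:17077648-17077677, minus strand: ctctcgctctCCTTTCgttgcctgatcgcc
RPS3, chr11:75399508-75399537, plus strand: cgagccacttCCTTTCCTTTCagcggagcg
RPL3, chr22:39319604-39319633, minus strand: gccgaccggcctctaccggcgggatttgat
EEF2, chr19:3985444-3985473, minus strand: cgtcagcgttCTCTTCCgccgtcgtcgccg
SND1, chr7:127652184-127652213, plus strand: gagatcgcgtCTCTTTCgctccgtgtcccg
UPF1, chr19:18831949-18831978, plus strand: cggtggcggcagttcctgctctaggctgcg
VCP, chr9:35072606-35072635, minus strand: ttctcggctcagtctcagcgaagcgtctgc

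The search was made on the transcribed strand at the annotated start only, in the 22114 genes with 1 start in the table. There, 3.98% of genes held such a start. It was present in 41 of the 53 matched ribosomal protein genes (77.4%), in 10 of 23 matched translation factors, and in 97 of the 1432 matched tested genes that are not ribosomal proteins (6.77%). RPL3, UPF1 and VCP lack the motif as searched. SND1 has it although it is neither a ribosomal protein nor a translation factor.

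Depth set the limits of the comparison. Footprint libraries held 152556 to 1281039 counts, of which 23134 to 283435 fell on protein-coding genes, and tested genes had a median of 12.9 counts per library. Protein-coding counts were 23134 to 46597 in 6 h actD, 23908 to 94447 in 6 h DMSO, 127856 to 283435 in 72 h actD and 26831 to 121227 in 72 h DMSO, so depth moved with time and, at 72 h, with treatment. These counts include the humanin-like MTRNR2L genes, copies of mitochondrial ribosomal RNA. Their share was 6.65% to 13.2% in 6 h actD and 4.77% to 10.15% in 6 h DMSO. At 72 h it was 17.4% to 41.1% in actD and 8.05% to 36.3% in DMSO, so the depth on other genes was lower. MicroRNA genes took 4.67% to 71.4% of the footprint counts at 6 h and 1.18% to 5.89% at 72 h. A count of 0 allows up to 3 counts, which was 2.01 to 20.5 CPM (the count scaled to library size), for counting error only. The 4 libraries with fewer than 30000 protein-coding counts were 6 h actD libraries 1 and 2, 6 h DMSO library 3 and 72 h DMSO library 3. Because each time has its own deposited table, levels are compared within a time, and the times only through the actD to DMSO ratio.

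No protein-coding gene had an interaction past an adjusted p of 0.05. EdgeR's quasi-likelihood test called 0 of 2556 genes (0.00%), with a smallest adjusted p of 0.732, and limma voom also called 0. DESeq2 called 1 gene, RPLP2, at an adjusted p of 0.048. At an unadjusted p under 0.05 there were 179 genes (7.00%), of which 127 (4.97%) had a higher and 52 (2.03%) a lower actD to DMSO ratio at 72 h. The median interaction was 0.23 with quartiles of -0.44 and 1.10, and 59.6% of genes lay above 0. The direction of this excess rested partly on genes at 0. In 141 tested genes all 3 libraries of a group were listed at 0, most often 6 h actD (118 genes), and these supplied 51 of the 127 higher genes and 0 of the lower ones. With them left out, 76 higher and 52 lower genes remained among 2415, and the median was 0.18. In the 791 genes with a mean of at least 20 counts, 32 were higher and 16 lower at an unadjusted p under 0.05. The median standard error (SE) of the interaction there was 0.76 on the log2 scale.

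The zero point itself depended on scaling. The median interaction of all tested genes was 0.23 with TMM factors, 0.42 with DESeq2 size factors and 0.77 with library totals alone. Gene lists are therefore set beside the median of all tested genes in each case.

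The ratio at 72 h and the ratio at 6 h are the components of the interaction. At 72 h, 6 of 2556 genes (0.235%) passed an adjusted p of 0.05, and each of them was lower in actD. An unadjusted p under 0.05 was reached by 463 (18.1%), 173 of them higher (6.77%) and 290 lower (11.3%). At 6 h, 0 genes (0.00%) passed by edgeR, DESeq2 or limma voom, and 173 (6.77%) reached an unadjusted p under 0.05, 19 higher (0.743%) and 154 lower (6.03%). The ratio was above 0 in 51.1% of genes at 72 h and in 33.6% at 6 h. The actD and DMSO libraries did not overlap at 72 h in 18.1% of tested genes with actD higher and 17.9% with actD lower, and at 6 h in 2.27% and 7.63%. Among the 791 better-counted genes, 300 were below 0 at both times, 199 above 0 at both, 200 above 0 only at 72 h and 91 above 0 only at 6 h.

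**Figure D1:**
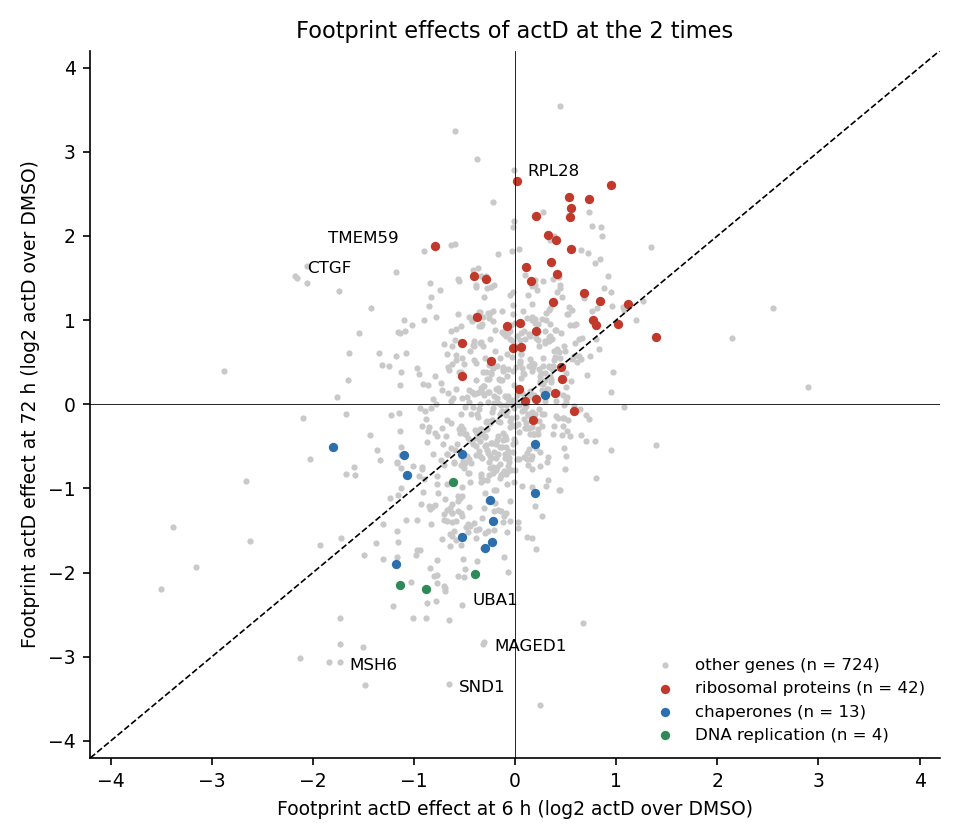
Footprint actD effect of each gene at 6 h (x axis, log2 actD over DMSO) and at 72 h (y axis, same scale) for 783 genes with a mean of at least 20 counts and no group wholly at 0, 1 of which lies outside the axes. The dashed line marks equal effects, and 430 of the 783 genes lie above it. Of 42 ribosomal proteins, 33 lie above it and 40 are above 0 at 72 h, beside 51.1% of all tested genes above 0 at 72 h. Below the line lie 10 of 13 chaperones and 4 of 4 DNA replication genes.

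Both lists of ribosomal proteins had a median interaction above that of all tested genes. Of 47 large-subunit proteins, 35 were tested, with a median interaction of 1.10 against 0.23 in all tested genes. Their medians were 1.21 at 72 h and 0.33 at 6 h. For 8 of the 35 the interaction was higher at an unadjusted p under 0.05, beside 4.97% of all tested genes, and none was lower. Of 32 small-subunit proteins, 27 were tested, with a median interaction of 0.64, and medians of 1.23 at 72 h and 0.21 at 6 h. For 2 of these the interaction was higher at an unadjusted p under 0.05 and for none lower. At 72 h the actD libraries lay wholly above the DMSO libraries in 33 of the 62 tested ribosomal proteins, beside 18.1% of all tested genes, and wholly below in 0. At 6 h this was so in 5 of 62, beside 2.27%, and the reverse in 0. None of the 62 passed the adjusted threshold by edgeR in the interaction or at either time. DESeq2 called RPLP2 in the interaction, as given above.

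Relative to the median of all tested genes, large-subunit proteins stood 0.87 higher with TMM factors, 0.86 with DESeq2 and 0.64 with library totals. The corresponding values of small-subunit proteins were 0.40, 0.36 and 0.43, but 0.20 without 6 h actD library 2 and -0.02 when all genes with a total of at least 10 counts were admitted. In the 8 libraries with at least 30000 protein-coding counts, a choice made after seeing the data that leaves 1 library of 6 h actD, the large-subunit median was 0.57 and the small-subunit median 0.58, against 0.20 for all tested genes. The large-subunit interaction was thus about 0.37 above the other genes there.

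The summed counts of the 79 ribosomal proteins show the same contrast without a fitted model. Taken as a share of protein-coding counts without the humanin-like MTRNR2L genes, which are near-identical copies of mitochondrial ribosomal RNA, they were 3.42% ± 0.66 in 6 h actD and 2.39% ± 0.35 in 6 h DMSO (SD, n = 3 each). At 72 h they were 5.39% ± 1.08 in actD and 2.31% ± 0.75 in DMSO (SD, n = 3 each). The libraries ranged from 4.60% to 6.62% in 72 h actD and from 1.61% to 3.10% in 72 h DMSO, without overlap. At 6 h the groups did not overlap either, but the lowest actD library, 2.67%, was close to the highest DMSO library, 2.63%.

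**Figure D2:**
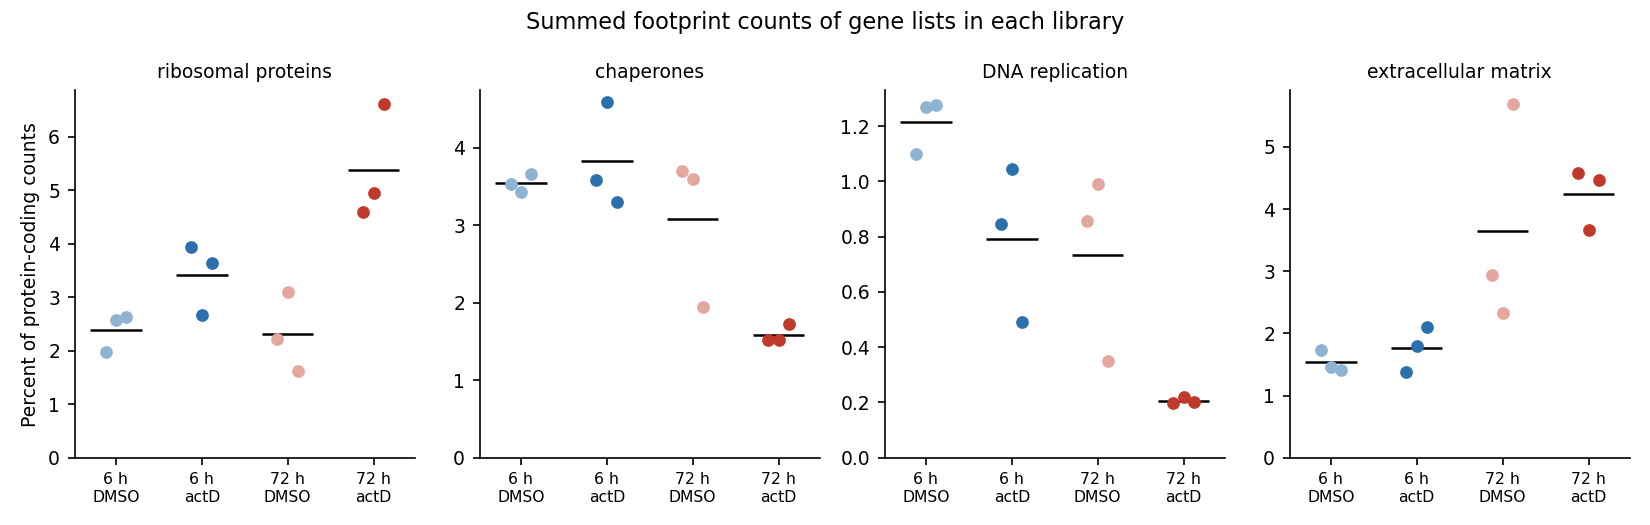
Summed footprint counts of 4 gene lists in each library, as a percentage of protein-coding counts without the MTRNR2L genes; points are libraries and bars are means of 3. Ribosomal proteins reached 4.60% to 6.62% in 72 h actD against 1.61% to 3.10% in 72 h DMSO, and chaperones 1.52% to 1.72% against 1.95% to 3.70%.

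RPL28, a protein of the large subunit with a TOP start of 8 pyrimidines, had the lowest interaction p of the better-counted ribosomal proteins. In libraries 1, 2 and 3 it measured 159, 156 and 323 CPM in 72 h actD and 27.7, 44.5 and 27.3 CPM in 72 h DMSO. At 6 h it measured 19.1, 4.01 and 28.2 CPM in actD and 16.5, 16.6 and 19.4 CPM in DMSO. All 72 h actD libraries lay above all 72 h DMSO libraries, while the 6 h groups overlapped. The interaction was 2.64 ± 0.82 (SE; edgeR adjusted p = 0.732), made of 2.66 at 72 h and 0.02 at 6 h, and ranged from 2.23 to 3.22 with any single library left out.

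RPL37, RPLP2 and RPL37A followed the same order. RPL37 measured 367, 352 and 618 CPM in 72 h actD against 77.6, 129 and 54.6 CPM in 72 h DMSO, and 73.2, 52.1 and 121 CPM in 6 h actD against 52.5, 58.2 and 58.2 CPM in 6 h DMSO. RPLP2, the acidic stalk protein that helps recruit elongation factors, measured 528, 427 and 402 CPM against 116, 148 and 68.2 CPM at 72 h, and 124, 92.2 and 144 CPM against 105, 123 and 58.2 CPM at 6 h. RPL37A measured 370, 278 and 456 CPM against 55.4, 76.2 and 47.8 CPM at 72 h, and 44.6, 28.1 and 110 CPM against 22.5, 52.0 and 19.4 CPM at 6 h. In all 3 genes the 72 h groups were apart and the 6 h groups overlapped. Their interactions were 1.79 ± 0.73, 1.68 ± 0.69 and 1.65 ± 0.84 (SE).

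Not all ribosomal proteins behaved so. RPL3, the most abundantly counted large-subunit protein, measured 240, 299 and 620 CPM in 72 h actD and 285, 593 and 143 CPM in 72 h DMSO, and its interaction was 0.14 ± 0.85 (SE). RPS3, a small-subunit protein near the mRNA entry site, had an interaction of 0.14 ± 0.84 because its ratio was above 0 at both times, 0.94 at 72 h and 0.80 at 6 h. RPS13 measured 518, 533 and 1545 CPM in 72 h actD and 158, 377 and 13.7 CPM in 72 h DMSO, where library 3 was the lowest, and its interaction was 1.68 ± 1.24 (SE). The 62 members ran from -3.96 for RPL36A, counted at a mean of only 6.08, to 11.4 for RPL35, a value without meaning as a fold because 2 of its groups were listed at 0. RPL3, RPL28, RPLP2, RPS3 and RPS13 share exon sequence with small RNA genes on the same strand, RPS13 also with PIK3C2A, and ribosomal proteins have many processed copies, so their counts are uncertain where reads could be shared.

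Outside the ribosomal proteins, genes with and without the TOP start had close medians, a difference that was not tested. Among genes with 1 annotated start and a mean of at least 20 counts, the median interaction was 1.00 in 22 ribosomal proteins with the motif and 0.24 in 5 without it. It was -0.01 in 33 other genes with the motif and 0.04 in 351 other genes without it. At 72 h the medians of the same 4 sets were 1.23, 0.52, -0.20 and -0.11. The sets also differed in coding length, with medians of 454.5, 789, 1398 and 1668 nt. EEF2, whose start is shown above, measured 277, 278 and 534 CPM in 72 h actD and 633, 696 and 471 CPM in 72 h DMSO, with an interaction of -0.03 ± 0.76 (SE). SND1, also with the motif, had the lowest 72 h ratio of the 6 genes called there. These are descriptions of letters at annotated starts, and the starts used in WiT49 were not measured.

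**Figure D3:**
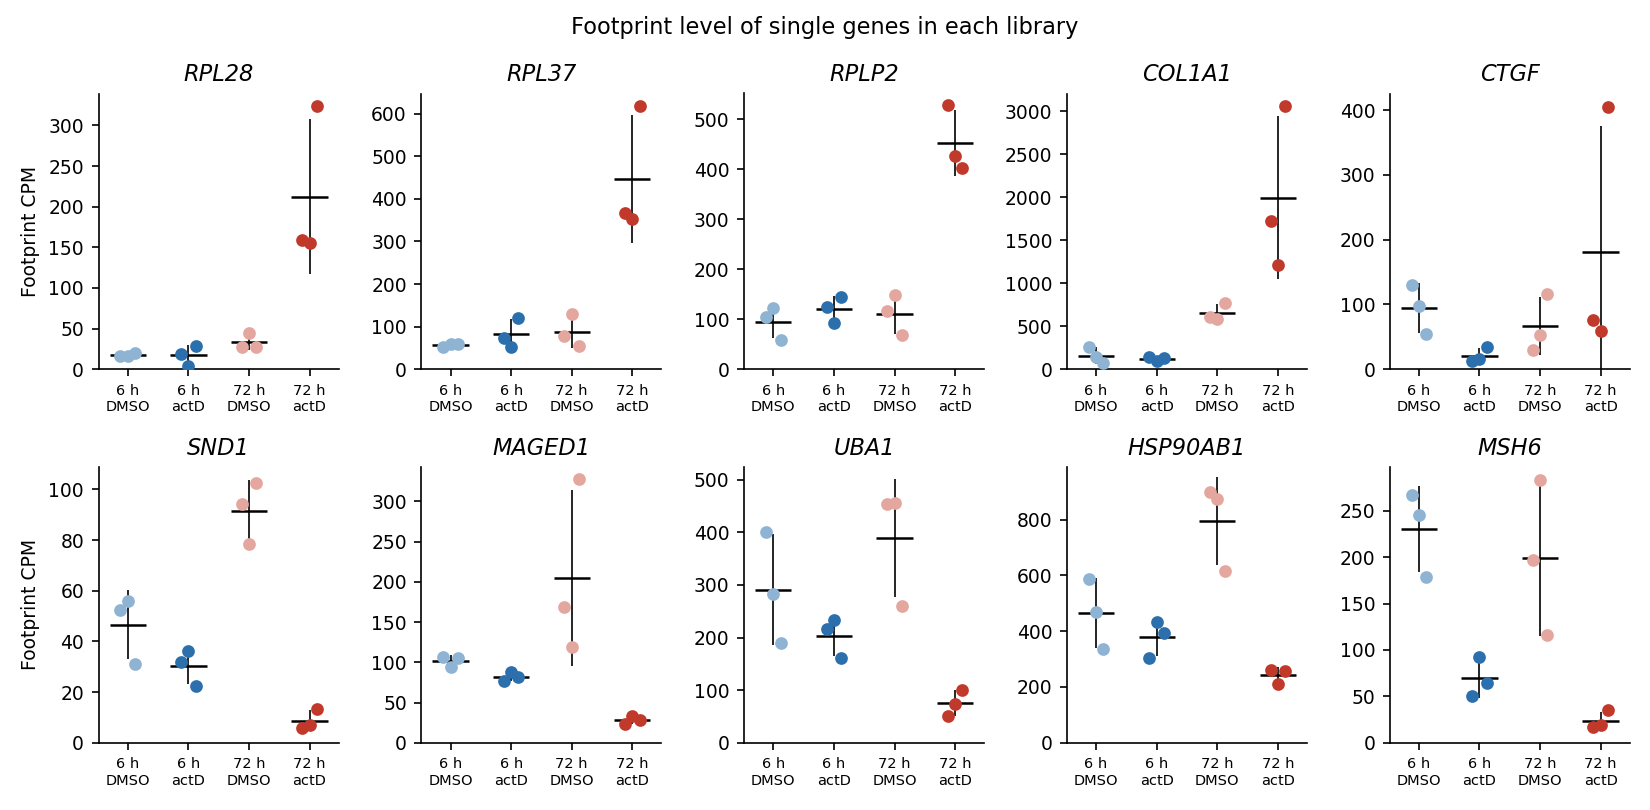
Footprint level in CPM (y axis, from 0) of 10 genes in the 4 groups (x axis); points are libraries, long bars means and thin bars 1 SD (n = 3). RPL28, RPL37, RPLP2 and COL1A1 are higher in 72 h actD than in 72 h DMSO in every library, and SND1, MAGED1, UBA1, HSP90AB1 and MSH6 lower.

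TMEM59, CTGF, MCAM, ITGB1 and MTRNR2L11 were, with RPL28, those of the 10 better-counted genes with a positive interaction and the lowest p that had no group at 0. TMEM59, a membrane glycoprotein of the Golgi and endosomes, measured 93.0, 75.2 and 56.4 CPM in 72 h actD and 19.4, 23.3 and 20.5 CPM in 72 h DMSO. At 6 h it measured 3.18, 8.02 and 25.4 CPM in actD and 21.0, 27.0 and 23.3 CPM in DMSO. The 72 h groups did not overlap and the 6 h groups did, and the interaction was 2.71 ± 0.76 (SE; edgeR adjusted p = 0.732).

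CTGF encodes a secreted matricellular protein induced by the transcription regulator YAP. It measured 12.7, 16.0 and 33.9 CPM in 6 h actD and 130, 97.7 and 54.4 CPM in 6 h DMSO, with all actD libraries below all DMSO libraries. At 72 h it measured 76.1, 59.5 and 405 CPM in actD and 30.5, 52.9 and 116 CPM in DMSO, where the groups overlapped and actD library 3 was far above the others. Its interaction was 3.66 ± 1.15 (SE) in footprints and 2.04 in total RNA. Without single libraries the footprint value ranged from 2.39 to 4.28.

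MCAM, an adhesion receptor of the immunoglobulin family, measured 86.4, 89.2 and 52.3 CPM in 72 h actD against 38.8, 31.8 and 41.0 CPM in 72 h DMSO, and its interaction was 1.82 ± 0.59 (SE). ITGB1, the β1 integrin chain, measured 209, 208 and 136 CPM against 104, 69.9 and 116 CPM at 72 h and had an interaction of 1.96 ± 0.68 (SE). Both were lower in actD at 6 h by value, with ratios of -0.79 and -1.01, so the interaction joined a negative ratio at 6 h with a positive one at 72 h. COL1A1, a chain of type I collagen, measured 1720, 1214 and 3057 CPM in 72 h actD against 605, 580 and 771 CPM in 72 h DMSO, with an interaction of 1.98 ± 0.90 (SE). COL3A1, which forms fibrils with it, had an interaction of 0.28 ± 0.84 (SE), so the 2 collagens did not share the value. MTRNR2L11, a humanin-like copy of mitochondrial ribosomal RNA, had 2.62 ± 0.93 (SE), and reads of the original cannot be told from it.

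For the other 4 of these 10 genes a whole group was listed at 0, and no fold is given. FBL, the methyltransferase fibrillarin of the nucleolus, was listed at 0 in all 3 libraries of 6 h actD and at 28.5, 24.9 and 0 CPM in 6 h DMSO, beside 59.2, 73.5 and 30.2 CPM in 72 h actD and 56.8, 55.0 and 20.5 CPM in 72 h DMSO. SNX22 was listed at 0 in all libraries but 6 h DMSO library 1 and the 3 of 72 h actD, which measured 82.7, 99.7 and 54.3 CPM. Its RNA was only 0.304 CPM in 72 h actD, and its exons overlap PPIB on the opposite strand, whose reads cannot be told apart if strand was not used. MOB1A, a subunit of the Hippo pathway kinase complex, was listed at 0 in all 3 libraries of 72 h DMSO and measured 95.8, 70.0 and 127 CPM in 72 h actD. LDHB, a lactate dehydrogenase chain, was listed at 0 in 9 libraries, including 72 h actD library 2, and measured 244 and 172 CPM in the other two of that group. With a 0 between such values in 1 group, an exact 0 in these tables may be a failed estimate.

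At the low end, SND1, a nuclease-domain protein of RNA regulation, fell at 72 h. It measured 5.63, 7.00 and 13.4 CPM in 72 h actD and 94.2, 78.3 and 102 CPM in 72 h DMSO, and 31.8, 36.1 and 22.6 CPM in 6 h actD against 52.5, 56.1 and 31.1 CPM in 6 h DMSO. The 72 h groups were far apart, with 6, 4 and 20 counts in the actD libraries, and the 6 h groups overlapped. The 72 h ratio was -3.32 ± 0.44 (SE; edgeR adjusted p = 0.0243), the 6 h ratio -0.65 ± 0.43, and the interaction -2.66 ± 0.60 (edgeR adjusted p = 0.732). In total RNA its interaction was -1.83. SND1 shares exon sequence with the intronic transcript gene SND1-IT1 on the same strand.

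MAGED1, an adaptor of the melanoma antigen family, also fell at 72 h. It measured 23.5, 33.2 and 28.8 CPM in 72 h actD and 169, 118.5 and 328 CPM in 72 h DMSO, beside 76.4, 88.2 and 81.8 CPM in 6 h actD and 106.5, 93.6 and 105 CPM in 6 h DMSO. The groups did not overlap at either time, but the gap was wider at 72 h. The 72 h ratio was -2.83 ± 0.47 (SE; edgeR adjusted p = 0.0499) and the interaction -2.52 ± 0.64, with -1.79 in total RNA.

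The other 4 genes that fell at 72 h had a lower level in actD at 6 h as well, by value. MSH6, a mismatch repair protein, measured 16.9, 19.2 and 34.9 CPM against 197, 284 and 116 CPM at 72 h, and 50.9, 92.2 and 64.9 CPM against 267, 245 and 179 CPM at 6 h. Its ratio was -3.06 at 72 h and -1.74 at 6 h, and the interaction -1.32 ± 0.70 (SE). ABCF1, a ribosome-associated ATPase of initiation, had -2.09 and -1.13, and MTHFD1L, a mitochondrial one-carbon enzyme, -2.62 and -0.88. UPF1 had -2.62 at 72 h, whereas its 6 h ratio rested on 1 count in the 3 actD libraries, so its interaction of 1.93 ± 0.92 (SE) has little meaning. All 4 had an edgeR adjusted p of 0.0499 at 72 h. These calls were fragile: with any 1 library left out 0 genes were called, except 2 without 6 h actD library 1 and 19 without 72 h DMSO library 3.

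The other genes with a negative interaction and the lowest p follow. UBA1, the main ubiquitin-activating enzyme, measured 50.7, 73.5 and 100 CPM in 72 h actD and 453, 455 and 259 CPM in 72 h DMSO, and 216, 232 and 161 CPM in 6 h actD against 400, 283 and 190 CPM in 6 h DMSO. Its groups were apart at 72 h and overlapped at 6 h, and the interaction was -1.86 ± 0.72 (SE). VCP had -2.53 ± 1.07 (SE), with 72 h DMSO library 3 at 27.3 CPM beside 130 and 138 CPM in the other two. GSPT1, the termination factor eRF3a, had -1.75 ± 0.66, and the helicases DDX1 and DHX30 had -1.60 ± 0.63 and -1.91 ± 0.80. EPB41 of the membrane skeleton had -1.70 ± 0.57 and the actin-binding LIMA1 -1.50 ± 0.65. In EPB41, GSPT1, DDX1 and LIMA1 the 6 h ratio was between 0.03 and 0.27, so their interaction was almost wholly the 72 h ratio. Under all 20 alternatives run, each of the 20 genes with the lowest interaction p kept its sign. The genes were chosen by that p in these same libraries, so a kept sign says little about how well they would repeat.

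Cytosolic and mitochondrial chaperones, which fold new and damaged proteins, had a median interaction of -0.67 in 19 tested of 24 genes, with medians of -1.05 at 72 h and -0.30 at 6 h. None of the 19 had an unadjusted interaction p under 0.05. HSP90AB1, the constitutive HSP90, measured 262, 212 and 258 CPM in 72 h actD and 898, 872 and 614 CPM in 72 h DMSO, and 306, 433 and 395 CPM in 6 h actD against 588, 468 and 338 CPM in 6 h DMSO. Its groups were apart at 72 h and overlapped at 6 h, with an interaction of -1.40 ± 0.70 (SE). HSPA8 had -1.40 ± 0.82 and HSP90AA1 -1.24 ± 0.83, while CCT8 of the TRiC ring had -0.19 ± 0.75 (SE). The summed share of the list was 1.59% ± 0.12 in 72 h actD and 3.08% ± 0.98 in 72 h DMSO, and 3.82% ± 0.68 in 6 h actD and 3.54% ± 0.11 in 6 h DMSO (SD, n = 3 each). Relative to all tested genes the list median stayed below 0 under all 20 alternatives, from -1.32 to -0.70.

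DNA replication genes had the lowest list median, -1.16 in 10 tested of 31 genes, with -2.07 at 72 h and -0.85 at 6 h. Of the 10, 8 had a lower 72 h ratio at an unadjusted p under 0.05, beside 11.3% of all tested genes, and none had such a p in the interaction. MCM7 of the replicative helicase measured 63.9, 76.9 and 73.8 CPM in 72 h actD and 330, 474 and 61.4 CPM in 72 h DMSO, so the groups overlapped through DMSO library 3. Its interaction was -1.62 ± 0.88, that of MCM4 -1.32 ± 0.89, and that of TOP2A, the topoisomerase of condensing chromosomes, -1.01 ± 0.74 (SE). The list median stayed below that of all tested genes under all 20 alternatives, but it turned to 0.43 without 6 h actD library 3, and to 0.92 when all genes with a total of at least 10 counts were admitted.

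Splicing factors and heterogeneous nuclear ribonucleoproteins had a median of -0.34 in 39 of 40 genes, aminoacyl-tRNA synthetases -0.52 in 12 of 20, and chromatin remodelling genes -0.32 in 19 of 32. In these lists 1, 0 and 0 genes were lower and 0, 0 and 2 higher at an unadjusted p under 0.05, beside 2.03% lower and 4.97% higher among all tested genes. CHD4, the helicase of the NuRD complex, measured 44.1, 40.2 and 51.0 CPM in 72 h actD and 288, 527 and 157 CPM in 72 h DMSO, and its ratio was below 0 at 6 h too, so the interaction was -1.11 ± 0.81 (SE). Translation factors had a median of -0.16 in 25 of 40 genes, apart from the ribosomal proteins they work with. EIF3A had -1.01 ± 0.79, EIF3B 0.27 ± 0.87 and EIF4G2 0.08 ± 0.70 (SE). Ribosome biogenesis factors, which assemble subunits in the nucleolus where actD acts first, had a median of -0.28 in 22 of 44 genes. In the 19 with no group at 0 it was -0.34. At an unadjusted p under 0.05, 3 of the 22 were higher and 0 lower, against that median. Of the 25 translation factors, 0 were higher and 1 lower at that level. The shares of all tested genes were 4.97% higher and 2.03% lower. NCL, the nucleolar protein nucleolin, had -0.29 ± 0.91, DKC1 -0.34 ± 0.56, NOP56 0.41 ± 0.77 and NPM1 2.25 ± 1.31 (SE), the last with 72 h DMSO library 3 at 13.7 CPM against 276 and 296 CPM. With library totals in place of TMM factors the medians of these 5 lists lay between 0.04 and 0.57, above 0 but below the 0.77 of all tested genes. The medians of translation factors, ribosome biogenesis factors and chromatin remodelling genes kept their sign under only 8, 11 and 11 of 20 alternatives. Relative to all tested genes, these medians kept their sign under 20, 19 and 19.

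The proteasome, named in the title of the series, had a median interaction of 0.23 in 23 of 36 subunits, equal to that of all tested genes. Its medians were 0.39 at 72 h and 0.05 at 6 h, and 1 subunit was higher and none lower at an unadjusted interaction p under 0.05, about the share among all tested genes (4.97% higher, 2.03% lower). PSMB5, the chymotrypsin-like site bound by bortezomib, measured 153, 180 and 199 CPM in 72 h actD and 99.7, 138 and 47.8 CPM in 72 h DMSO, with an interaction of 0.58 ± 0.68 (SE). PSMC5, an ATPase of the regulatory particle, had 0.95 ± 0.96, PSMB1 0.89 ± 2.53 and PSMB4 0.10 ± 0.62 (SE). Of 26 p53 target genes, 23 had a count but only CCNG1 was tested, with 0.62 ± 1.41 (SE), so that response was thinly measured. The summed share of the list was 0.102% to 0.150% in 72 h actD and 0.088% to 0.095% in 72 h DMSO. It was 0.039% to 0.129% in 6 h actD and 0% to 0.098% in 6 h DMSO. These shares rest on few counts, 15 in 72 h DMSO library 3, and were not tested.

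Nuclear-encoded respiratory chain and ATP synthase genes had a median of 0.72 in 25 of 71 genes, with 21 above 0. They were above the median of all tested genes under all 20 alternatives, by 0.28 to 0.74. The 4 best-counted members differed among themselves: ATP5F1B had 0.11 ± 0.97, ATP5F1A -0.67 ± 0.64, ATP5MC3 0.08 ± 0.66 and UQCRC1, a core subunit of complex III, 1.37 ± 1.37 (SE). The proteins encoded by mitochondrial DNA, made on mitochondrial ribosomes, had a median of -0.55 in 8 of 13 genes, with 1.01 at 72 h and 1.02 at 6 h. Their 6 h libraries varied widely: MT-CO1 measured 532, 329 and 70.5 CPM in 6 h actD and 42.0, 156 and 280 CPM in 6 h DMSO. With library totals the median was 0.31, and it became 0.19 without 6 h actD library 1 and 1.55 in the 8 deeper libraries, so it has no settled direction.

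Secretory and structural lists are set beside the 0.23 of all tested genes. Endoplasmic reticulum folding and translocation genes had a median of 0.59 in 16 of 28 genes. In the 13 with no group at 0 it was 0.21, close to the 0.18 of all such tested genes. In the 10 with a mean of at least 20 counts it was 0.69, against 0.12 in all such genes. The 4 best-counted members HSPA5, HSP90B1, CALR and P4HB had -0.50 ± 0.81, -0.32 ± 0.79, -0.13 ± 0.75 and 0.41 ± 0.81 (SE). Cytoskeleton, adhesion and actomyosin genes had 0.57 in 34 of 40, with ACTB at 1.02 ± 0.72, AHNAK at 0.91 ± 0.71, ACTG1 at 0.68 ± 0.84 and MYH9 at -0.90 ± 0.73 (SE). Extracellular matrix genes had 0.25 in 16 of 22, 0.02 from all tested genes, with THBS1 at -0.22 ± 0.77 and LAMB1 at -0.01 ± 0.79 (SE) beside the collagens above. Of the 3 lists, 1, 2 and 1 genes were higher and 0 lower at an unadjusted p under 0.05, near the shares of all tested genes, 4.97% higher and 2.03% lower.

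**Figure D4:**
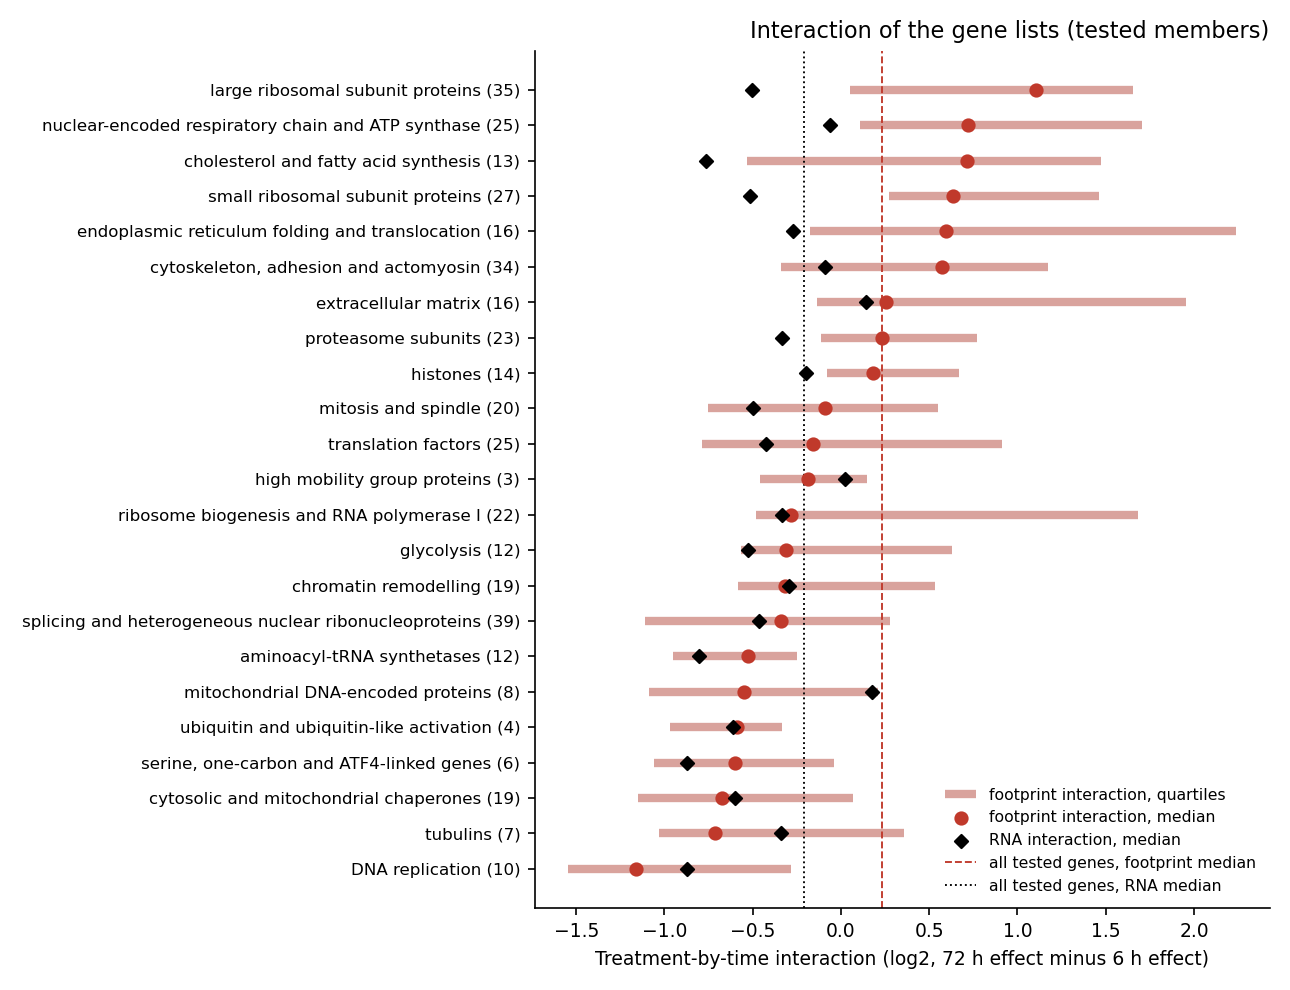
Median footprint interaction (circles) with quartiles (bars) and median RNA interaction (diamonds) of each gene list on the log2 scale; numbers in brackets are tested members and vertical lines the medians of all tested genes. Large-subunit ribosomal proteins stand at 1.10 in footprints and -0.50 in RNA, and DNA replication genes at -1.16 and -0.87.

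The footprint interaction was ordered by coding length. Across the 791 genes with a mean of at least 20 counts, Spearman's coefficient between the length of the longest annotated coding sequence and the interaction was -0.418, a description across genes, which share libraries and are not replicates. It was -0.576 for the 72 h ratio and -0.336 for the 6 h ratio, but -0.063 for the RNA interaction of the same genes. In 5 groups of 158 or 159 genes by length, the median interaction was 0.81 for coding sequences of 72 to 702 nt, 0.40 for 705 to 1284 nt, 0.07 for 1287 to 1890 nt, -0.42 for 1893 to 3111 nt and -0.27 for 3114 to 22776 nt. The median 72 h ratio ran from 0.85 in the shortest group to -0.65 in the longest, and the 6 h ratio from 0.05 to -0.43.

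Ribosomal proteins are short, and the order by length did not need them. Without them Spearman's coefficient was -0.392 across 748 genes. The 127 other genes of the shortest group had a median interaction of 0.79, with 104 of them above 0, and a median 72 h ratio of 0.77. The 62 tested ribosomal proteins, at any count, had medians of 0.85 and 1.22. The 43 of them with a mean of at least 20 counts, of any length, had a median interaction of 0.92. The difference between ribosomal proteins and other short genes was not tested. The coefficient for the interaction ranged from -0.486 to -0.329 with single libraries left out and was -0.229 in the 8 deeper libraries, where it was -0.491 at 72 h and -0.420 at 6 h. Depth differed between the groups as given above, and its part in this order was not tested.

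**Figure D5:**
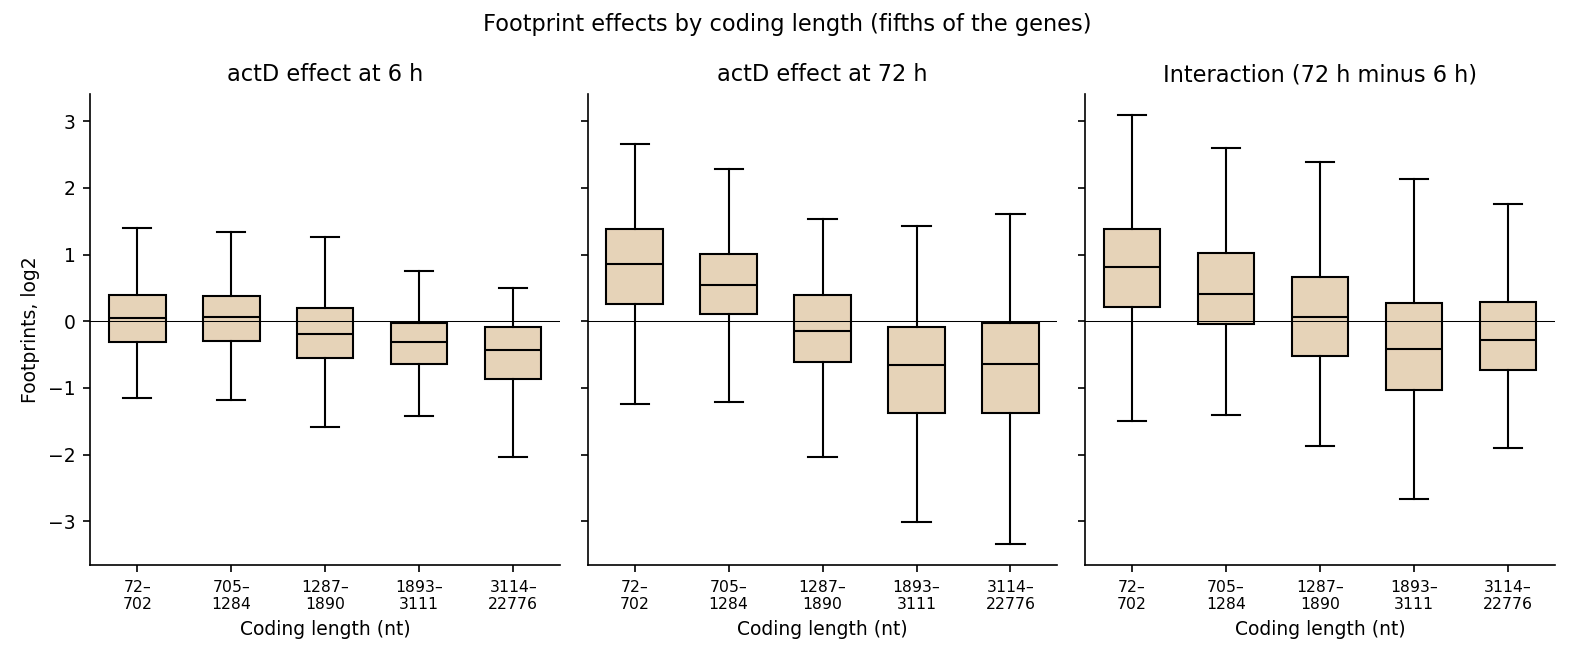
Footprint log2 effects (y axis) at 6 h, at 72 h and as their difference in 5 groups of 791 genes by coding length (x axis, nt); boxes show quartiles with the median as a line, whiskers reach 1.5 box lengths and points beyond are not drawn. The median interaction runs from 0.81 in the shortest group to -0.42 and -0.27 in the longest 2.

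Total RNA gave a partly different order. In RNA, edgeR called 3 of 15196 genes (0.0197%), with 8.77% at an unadjusted p under 0.05. In the 2547 genes measured in both assays, 29.4% had an RNA interaction above 0 and the median was -0.21. At an unadjusted p under 0.05, 1.22% of them were higher and 9.27% lower. Spearman's coefficient between the interactions of footprints and RNA, as a description across these genes, was 0.315, or 0.372 over 788 genes with a mean of at least 20 footprint counts. Large-subunit and small-subunit ribosomal proteins had RNA medians of -0.50 and -0.51, on the other side of 0 from their footprints, with 34 of 35 and 23 of 27 members below 0. Chaperones, DNA replication genes and aminoacyl-tRNA synthetases were below 0 in both assays, with RNA medians of -0.60, -0.87 and -0.80. The direct test of the difference between assays, a three-way interaction, called 1 of 2551 genes (0.0392%). The three-way value was above 0 in 59.1% of genes. An unadjusted p under 0.05 was reached by 208 (8.15%), of which 168 (6.59%) were higher in footprints than in RNA and 40 (1.57%) lower. Of the 35 large-subunit proteins, 8 were higher at that level, with a median three-way value of 1.32 against 0.25 in all genes tested. Of the 27 small-subunit proteins, 1 was higher at that level, near the 6.59% of all genes tested. Their median three-way value was 0.795 against 0.25 in all genes tested. Values above 0 were found in 23 of the 27, beside 59.1% of all genes tested.

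The labelled cell type was checked by its markers. IGF2 and NCAM1, typical of Wilms tumor, had footprint counts in all 12 libraries and WT1 in 3, whereas the nephron progenitor genes SIX2, SALL1, PAX2, PAX8, EYA1, LYPD1 and MEOX1 had none. Immune, endothelial and blood cell markers were at 0 in all 12 footprint libraries. Of 7 stroma markers, the collagens COL1A1 and COL3A1 were counted in all 12 libraries, LUM in 10, PDGFRB in 6 and PDGFRA in 4, and DCN and ACTA2 were at 0 in all 12.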

How the data were processed

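Footprint and total RNA libraries of WiT49 cells at 6 h and 72 h were used, 3 per group. The authors deposited 1 table per assay and time with a whole-number estimated count (expected count) per gene and library. Per the submitters' processing notes, HISAT2, StringTie and the hg38 build were used; versions, annotation, trimming, length selection and use of strand are not given in the sources used here. Such estimates can fail to an exact 0 and can split reads between overlapping or near-identical genes. The values are whole, so rounding changed nothing.

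Gene identifiers (43582 in both footprint tables) were matched to GENCODE release 29 on GRCh38, 93.5% with their version and 99.4% without. The 12 footprint libraries were fitted together with edgeR 4.0.16 in R 4.3.3 (quasi-likelihood, two-sided, TMM, filterByExpr, Benjamini-Hochberg over 3012 genes of all types), and only protein-coding genes are reported. CPM are counts scaled to the TMM-adjusted library size. RNA was fitted likewise, and both assays together for the three-way interaction. The biological coefficient of variation was 0.622 in footprints and 0.323 in RNA. The script was tested on simulated data, where a pass was required only at a spread far below that of these footprints. How many true effects it recovers at the real spread is not given here. Alternatives were DESeq2 1.42.0, library totals, protein-coding genes only, a total of at least 10 counts, a mean of at least 20 counts, the replicate number as a block, limma 3.58.1 voom with quality weights, each library left out, and, chosen after seeing the data, only libraries with at least 30000 protein-coding counts.

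The compared genes and lists were chosen with earlier results of these data known. Named are the 10 genes with the lowest interaction p in each direction at a mean of at least 20 counts, up to 4 best-counted members of each list, the genes called at 72 h with that mean, and, after their values were seen, ABCF1, MTHFD1L, UPF1, RPL35, RPL36A, PRDX4 and the 3 genes called in RNA. Two-week libraries were not analysed here. A few genes that the naming rule selects are not reported here.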

Additional observations from a re-analysis of the deposited data

Results flagged for a closer look

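PRDX4, a peroxiredoxin of the endoplasmic reticulum, was the 1 gene whose actD effect differed between times more in footprints than in RNA by the three-way test (edgeR adjusted p = 0.0127). Its footprint counts were 0, 0 and 0 in 6 h actD, 11, 6 and 0 in 6 h DMSO, 35, 15 and 24 in 72 h actD and 0, 0 and 0 in 72 h DMSO. With 2 groups listed at 0 no fold is given. Its RNA level was 164 ± 24.4 and 178 ± 37.0 CPM at 6 h and 209 ± 41.0 and 218 ± 26.8 CPM at 72 h in actD and DMSO (SD, n = 3 each), so a gene with ample RNA was listed at 0 in 2 footprint groups.

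In RNA, 3 of 15196 protein-coding genes (0.0197%) had an effect that differed between times. MGAT3, a glycosyltransferase, had 30, 25 and 19 counts in 72 h actD and 315, 418 and 650 in 72 h DMSO, beside 668, 546 and 664 in 6 h actD and 862, 878 and 804 in 6 h DMSO, an interaction of -3.94 ± 0.30 (SE; edgeR adjusted p = 0.000358). LYRM7, an assembly factor of respiratory complex III, had 2857, 5302 and 6755 counts against 393, 353 and 657 at 72 h, and 1012, 975 and 1322 against 886, 823 and 931 at 6 h (2.88 ± 0.38; edgeR adjusted p = 0.0322). AC011511.1 had 78, 74 and 41 counts against 1, 1 and 2 at 72 h, and 74, 126 and 171 against 150, 145 and 104 at 6 h (edgeR adjusted p = 0.0198). None of the 3 had more than 3 footprint counts in any library.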

How the results depend on the processing

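The count of 0 interaction calls held under every alternative run except DESeq2, which called 1 gene. The 6 h count was 0 throughout. The 6 calls at 72 h became 284 with DESeq2, 0 with library totals, 131 among protein-coding genes only, 0 with a total of at least 10 counts, 64 with a mean of at least 20 counts, 824 with limma voom and 117 in the deeper libraries, and ranged from 0 to 19 with 1 library left out. The 3 RNA calls became 139 with DESeq2 and 381 with limma voom, with a range of 1 to 33 (33 without 72 h actD library 3). The 1 three-way call became 29 with DESeq2, 3 with library totals, 3 among protein-coding genes only, 0 with a mean of at least 20 counts and 8 with limma voom, with a range of 0 to 55 (55 without 6 h actD library 3). Where a group lost a library, the other two were assumed to vary like the rest, and which cause moved each count was not tested. With the replicate number as a block, 0 genes were called in the interaction and at 72 h, and 1 in RNA. Same-numbered footprint libraries correlated between -0.502 and 0.332 in their deviations from group means, so the numbers give no pairing. Relative to all tested genes, the medians of large-subunit ribosomal proteins, the respiratory chain, the endoplasmic reticulum and chaperones kept their sign under all 20 alternatives, while with a total of at least 10 counts those of small-subunit proteins and the cytoskeleton turned to -0.02 and -0.33. Depth limited single genes, with a median SE of the interaction of 0.76 even at a mean of at least 20 counts.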

Other observations

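Further lists add groups not described above. Tubulins had a median interaction of -0.72 in 7 of 11 genes, with TUBA1C at -1.23 ± 0.91, TUBA1B at -0.83 ± 1.37, TUBB4B at -0.72 ± 0.84 and TUBB at 0.08 ± 0.90 (SE), and none had an unadjusted p under 0.05. Glycolytic enzymes had -0.31 in 12 of 18, with GPI at -0.52 ± 0.65, ALDOA at -0.22 ± 0.80, ENO1 at 0.62 ± 1.03 and PKM at 0.66 ± 1.00 (SE). Histones had 0.18 in 14 of 16, with HIST1H3B at 0.83 ± 0.77, HIST1H1C at 0.58 ± 0.82, HIST1H2AC at 0.01 ± 1.25 and HIST1H1E at -0.02 ± 0.78 (SE). Mitotic genes had -0.09 in 20 of 30: CENPF stood at -0.01 ± 0.76 and MKI67, the proliferation marker Ki-67, at 1.38 ± 0.89 (SE), the latter with a ratio of -2.03 at 6 h and -0.65 at 72 h.

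Cholesterol and fatty acid synthesis genes had a median of 0.72 in 13 of 30, which became 0.01 in those with no group at 0. FASN, the fatty acid synthase, was listed at 0, 0 and 22.6 CPM in 6 h actD beside 178, 58.2 and 42.7 CPM in 6 h DMSO, and measured 68.6, 78.7 and 15.4 CPM in 72 h actD beside 324, 345 and 61.4 CPM in 72 h DMSO. Genes of serine synthesis and the ATF4 response had -0.60 in 6 of 25, with SHMT2 at -0.93 ± 0.65, SLC7A5 at -0.27 ± 0.63 and SLC3A2 at 0.04 ± 0.67 (SE). SLC1A5, a glutamine transporter, was listed at 0 in all 3 libraries of 6 h actD and at 40.5, 10.4 and 11.7 CPM in 6 h DMSO. High mobility group genes had -0.19 in 3 of 10 and ubiquitin and its activating enzymes -0.59 in 4 of 11. With library totals, the medians of the glycolytic, mitotic, ATF4-linked and high mobility group lists lay above 0, at 0.24, 0.38, 0.13 and 0.36, and below the 0.77 of all tested genes.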
